A study of Mus musculus with 4 samples.

Results

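Delta cells are the somatostatin-secreting cells of the pancreatic islet. They were chosen by 3 hormone shares of each cell's unique molecular identifiers (UMIs, 1 per captured RNA molecule): at least 3% from Sst, the somatostatin gene, under 5% from the insulin genes Ins1 and Ins2 together, and under 3% from Gcg, the glucagon gene. The rule found 1539 delta cells among 18612 islet cells: 308 and 231 in the 2 Sel1L knockout libraries, and 462 and 538 in the 2 wild type libraries. Because Sst, Ins1, Ins2 and Gcg chose the cells, their levels are given as a description.

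The study sequenced C57BL/6 mouse islets, rested overnight after isolation and dissociated with trypsin, with 10x Genomics droplets that count RNA at its 3′ end. In the knockout mice Cre recombinase expressed from Ins1, an insulin gene active in beta cells, deletes floxed Sel1L. The wild type mice carried the same floxed alleles (Sel1L f/f) without Cre, and no library had Cre with intact Sel1L, so effects of the deletion and of Cre cannot be told apart. All 4 libraries are labelled with an age of 7 weeks, while the series text gives 5 weeks. SEL1L is the partner of the ligase HRD1 in ERAD, the disposal of misfolded proteins of the endoplasmic reticulum (ER), and the series concerns its role in beta cells. The labels do not say whether libraries of a genotype came from separate animals, so p-values measure only the spread between these libraries, which may be technical.

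Delta cells sit among beta and alpha cells and release somatostatin, which acts on neighbouring cells through inhibitory receptors and restrains both insulin and glucagon secretion. Their differentiation in mice depends on the transcription factor HHEX. Peptide YY, encoded by Pyy, and pancreatic polypeptide, encoded by Ppy, belong to the neuropeptide Y family, and pancreatic polypeptide is the product of a further endocrine type, the PP cell.

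The 3 hormone genes that filled delta cells are shown here by the sequence just upstream of their start sites, because their transcripts were found together in single cells. Each is the 150 bases before the RefSeq start (GRCm38.p6), from the minus strand, 5′ to 3′. Sst lies at chr16:23890845-23890994, Pyy at chr11:102107833-102107982 and Ppy at chr11:102101320-102101469. Capitals mark a cyclic AMP response element (TGACGTCA) in the Sst window and the letters TATAAA in the Ppy window.
Sst: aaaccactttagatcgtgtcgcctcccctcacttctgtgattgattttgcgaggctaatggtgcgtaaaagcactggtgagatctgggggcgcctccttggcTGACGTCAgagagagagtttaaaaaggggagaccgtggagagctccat
Pyy: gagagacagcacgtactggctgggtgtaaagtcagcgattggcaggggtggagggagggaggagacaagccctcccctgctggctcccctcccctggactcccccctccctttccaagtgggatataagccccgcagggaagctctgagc
Ppy: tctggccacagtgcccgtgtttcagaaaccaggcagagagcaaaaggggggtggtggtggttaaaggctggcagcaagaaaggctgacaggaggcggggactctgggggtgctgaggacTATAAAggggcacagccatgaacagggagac
The response element began 48 bases before the Sst start and TATAAA began 31 bases before the Ppy start. On both strands, TGACGTCA was found in 1.36% and TATAAA in 7.57% of 32851 RefSeq windows of the same length. The Pyy window held neither of them and no TAATTA, a homeodomain core found in 2.73% of windows. It held the E-box letters CANNTG, found in 47.7% of windows. The Ppy and Pyy genes lie on the same strand of chromosome 11 with 5356 bases between them.

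Libraries held 4337 and 2483 cells in knockout with 160208775 and 99156230 UMIs, and 5951 and 5841 cells in wild type with 215467602 and 228515309 UMIs. Delta cells were 7.10% and 9.30% of cells in the knockout libraries, against 7.76% and 9.21% in wild type. The means were 8.20% ± 1.56 in knockout and 8.49% ± 1.02 in wild type (SD, n = 2 each), and the ranges overlapped (exact two-sided permutation test, p = 1; with 2 libraries against 2 the smallest p possible is 0.333). Delta cells of the knockout libraries were more deeply covered, with a median of 16504.5 and 18194 UMIs and 3992 and 4209 detected genes per cell, against 11484.5 and 12545 UMIs and 2999.5 and 3199.5 genes in wild type. The median mitochondrial share was 3.73% and 3.74% in knockout and 2.68% and 2.58% in wild type delta cells. Neither measure overlapped between genotypes. A refit with every cell thinned to 5000 UMIs, given below, evens out depth and leaves RNA quality as it was. Beyond that refit, the part of depth and RNA quality in the expression differences below was not tested. No cell barcode was shared by delta cells of different libraries, and whole libraries shared 1 to 9 barcodes.

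The cut fell in a sparse range of Sst. Between 3% and 4% Sst there were 6 and 1 cells in the knockout libraries and 7 and 8 in wild type, just inside the rule. Between 2% and 3% there were 9 and 5 cells in knockout and 9 and 3 in wild type, just outside. Of all cells with at least 3% Sst, the insulin limit removed 1 and 1 in knockout and 4 and 7 in wild type, and the Gcg limit 3 and 2 in knockout and 4 and 2 in wild type.

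The label held up against the markers that the rule did not use. At least 3 of Hhex, Rbp4, Ly6h and Arg1 were detected in 98.4% and 98.3% of knockout and 94.8% and 96.8% of wild type delta cells. The same was true of at most 4.93% of alpha, beta or PP cells of any library. After thinning every cell to 5000 UMIs, which left out 3 and 2 knockout and 14 and 5 wild type delta cells, Ly6h, a cell surface protein of the Ly6 family, was detected in 51.8% and 57.6% of knockout and 53.1% and 60.04% of wild type delta cells, and unthinned in 83.4% and 80.1% of knockout and 73.6% and 80.7% of wild type delta cells. Endothelial cells, which should lack Ly6h and so measure free RNA, had it in 0% to 0.775% of cells, at median depths of 11742 and 9601.5 UMIs in knockout and 6452 and 6600.5 in wild type before thinning. Arg1, the arginase gene, was found in 90.2% and 89.1% of knockout and 86.2% and 82.4% of wild type delta cells, against 0% to 1.34% of endothelial cells. Hhex was found in 66.9% and 65.9% of knockout and 66.3% and 69.4% of wild type delta cells at equal depth, and unthinned in 95.1% and 94.8% against 89.0% and 89.6%. Endothelial cells, which also express Hhex, had it in 21.5% to 25.7%, and alpha cells in at most 0.606%.

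Set beside the other endocrine cells, delta cells carried a distinct set of surface, secreted and regulatory transcripts. Alpha cells were taken as cells with at least 3% Gcg, beta cells as cells with at least 20% insulin and PP cells as cells with at least 3% Ppy, with limits on insulin, Gcg or Sst that keep the classes apart. As the classes were cut on hormones of the same cells, these differences describe them and are no test. For delta cells against alpha, beta and PP cells, 924 of 11278 genes (8.19%) were higher in delta cells than in each class by edgeR's call rule and 690 (6.12%) were lower. Without composition scaling the counts were 5862 higher and 86 lower. Levels are CPM, the UMIs of a gene scaled to a common total of the class in a library.

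The widest gap among genes higher in delta cells was that of Ly6h, at 222 and 255 CPM in knockout and 212 and 260 CPM in wild type delta cells, against at most 3.67 CPM in any alpha, beta or PP library. Hhex stood at 285 and 247 CPM in knockout and 266 and 278 CPM in wild type delta cells, 8.31, 8.50 and 4.86 log2 units above alpha, beta and PP cells. Cd24a, a mucin-like surface protein, was at 421 and 427 CPM in knockout and 411 and 423 CPM in wild type delta cells, 4.94 log2 units above PP cells, its nearest class. Every delta library thus lay far above the highest library of another endocrine class, at 14.2 CPM. Mest, an imprinted gene, was at 211 and 221 CPM in knockout and 248 and 247 CPM in wild type, and Ptprz1, a receptor tyrosine phosphatase, at 119 and 133 CPM in knockout and 161 and 121 CPM in wild type. Dpp6, an auxiliary subunit of potassium channels, ran from 72.1 to 85.5 CPM over the 4 delta libraries, and Neurog3, the transcription factor of endocrine progenitors, from 58.5 to 69.1 CPM. Cela1, the gene of a digestive enzyme, was also among the 10 widest. It was at 132 and 150 CPM in knockout and 64.1 and 118 CPM in wild type, and made up nearly all of the summed level of 10 acinar markers, 133 and 152 CPM in knockout and 64.5 and 119 CPM in wild type. Cpa1, Cela2a and Cela3b had no UMI.

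Rbp4, which encodes retinol-binding protein, was 3.19 log2 units above alpha, 6.61 above beta and 4.29 above PP cells. Arg1 was 3.06, 6.23 and 4.25 above them. Over all genes tested 8.19% were higher in delta cells than in all 3 classes and 6.12% were lower. Of 15 tested delta markers, 13 were higher in delta cells than in all 3 classes. Among islet transcription factors 7 of 21 were higher in delta cells, Hhex, Isl1, Rfx6, St18, Neurog3, Meis2 and Rfx3. Nkx2-2 and Nkx6-1 were lower in delta cells than in all 3 classes. Pdx1, the factor shared by beta and delta cells, was 3.98 above alpha and 1.64 above PP cells and -0.17 against beta cells. After composition scaling Iapp, the amylin gene, was 4.01 above alpha and 2.40 above PP cells, and -1.50 against beta cells.

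Receptors also separated the cells. Ghsr, the ghrelin receptor, stood at 19.3 and 25.8 CPM in knockout and 15.1 and 18.6 CPM in wild type delta cells, and was 6.08 log2 units or more above every other endocrine class. Crhr2, the receptor through which beta-cell urocortin 3 reaches delta cells, Ffar4, a fatty acid receptor, Sstr1, a somatostatin receptor, and Ramp1, a subunit of calcitonin-family receptors, were also higher than in all 3 classes. Crhr2 was near its detection limit at 2.37 and 3.59 CPM in knockout and 3.21 and 3.33 CPM in wild type delta cells. Ffar1, the other fatty acid receptor, was lower, at most 0.910 CPM in a delta library. The widest gap among genes lower in delta cells was Ociad2, at 2.91 and 2.69 CPM in knockout and 2.67 and 3.88 CPM in wild type, with a log2 difference of -4.83 to PP cells, the nearest class. Ttr, the transthyretin gene, had a log2 difference of -7.81 to alpha cells, and the ligand gene Wnt4 of -2.93, -3.01 and -2.99 to alpha, beta and PP cells. Of 25 tested immediate early genes, among them Jun, Egr1 and Nr4a1, 15 were higher in delta cells and 2, Klf4 and Myc, were lower. Over all genes tested 8.19% were higher and 6.12% lower.

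**Figure D1:**
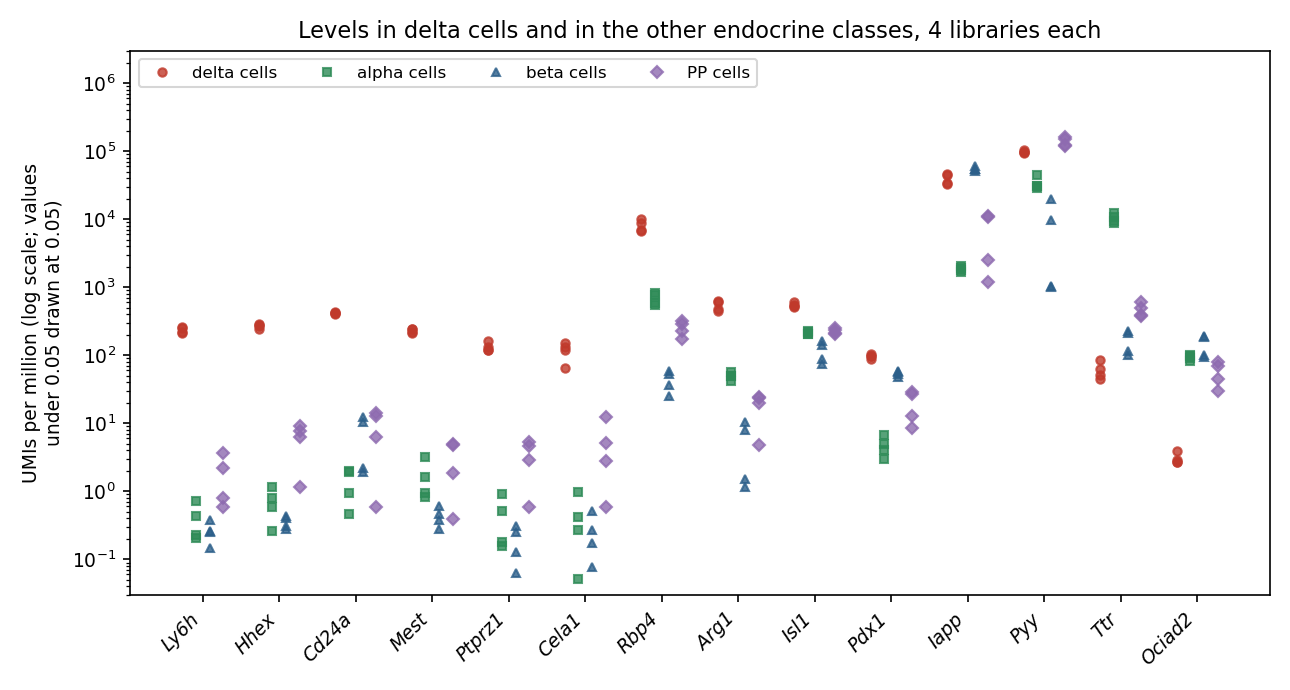
Levels of 14 genes in CPM (log scale) in delta, alpha, beta and PP cells, 1 point per library. Ly6h, Hhex, Cd24a, Mest, Ptprz1 and Cela1 lie above 60 CPM in every delta library and far below it in the other classes, Iapp lies between the PP and beta levels and Pyy between the alpha and PP levels.

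Pyy and Ppy were expressed with Sst in the same cells. In the median delta cell Sst took 9.82% and 9.97% of UMIs in the knockout libraries and 11.0% and 11.3% in wild type. Pyy took 9.86% and 9.07% in knockout and 9.51% and 10.4% in wild type, so Pyy was nearly as abundant as Sst. Ppy took 6.12% and 5.09% in knockout and 5.82% and 4.69% in wild type. Together the 3 hormones made up 26.6% and 25.6% of the median knockout and 26.7% and 26.9% of the median wild type delta cell.

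At least 1% of UMIs came from Pyy in 99.7% and 98.7% of knockout and 99.8% and 99.8% of wild type delta cells. The same threshold for Ppy was met by 90.6% and 89.6% of knockout and 92.4% and 86.1% of wild type cells. Both were at 1% or more in 278 and 205 knockout cells (90.3% and 88.7%) and 426 and 462 wild type cells (92.2% and 85.9%). Cells with Pyy and under 1% Ppy were 9.42% and 9.96% in knockout and 7.58% and 13.9% in wild type, while the reverse was seen in 1 and 2 knockout cells and 1 and 1 wild type cells. With a threshold of 3% for each, 76.3% and 75.3% of knockout and 77.5% and 69.0% of wild type delta cells held both.

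These amounts lay far above free RNA. The median delta cell held 1608 and 1620 Pyy UMIs in knockout and 1126 and 1301.5 in wild type, against 5 and 2 in knockout and 1 and 2 in wild type endothelial cells. For Ppy the medians were 1059 and 946 UMIs in knockout and 668 and 583 in wild type delta cells, against 6 and 3 in knockout and 2 and 4 in wild type endothelial cells. Scrublet scores cells against simulated doublets. The highest-scoring 150 and 49 cells of the knockout and 283 and 273 of the wild type libraries were called. These numbers were set beforehand, at 0.8% per 1000 cells of a library. Among the called cells were 0 and 2 knockout and 12 and 12 wild type delta cells. Because the number called was preset, it does not measure how many delta cells were doublets.

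The spread among cells differed between the hormones. Pyy ran from 4.97% at the 5th to 15.5% at the 95th percentile in knockout library 1, and over all 4 libraries these percentiles lay between 4.20% and 15.97%. Ppy ran from 0.233% to 12.6% in knockout library 1, 0.253% to 10.9% in knockout library 2, 0.545% to 11.1% in wild type library 1 and 0.167% to 10.7% in wild type library 2 of UMIs. The lower end of Ppy was thus far below that of Pyy, and still above the endothelial medians of 0.0227% to 0.0488%. Sst was the most abundant of the 3 in 41.9% and 55.8% of knockout and 53.5% and 52.0% of wild type delta cells. Pyy led in 41.9% and 35.1% of knockout and 36.6% and 42.6% of wild type cells, and Ppy in 16.2% and 9.09% against 9.96% and 5.39%. The median ratio of Ppy to Pyy was 0.660 and 0.569 in knockout and 0.606 and 0.448 in wild type.

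Within a library the shares of the 3 hormones were almost unrelated across delta cells. Spearman's rho between Sst and Pyy was -0.002 and -0.044 in knockout (308 and 231 cells) and -0.063 and -0.124 in wild type (462 and 538 cells). Between Sst and Ppy it was -0.150 and -0.139 in knockout and -0.241 and -0.194 in wild type, and between Pyy and Ppy -0.208 and -0.057 in knockout and -0.090 and -0.096 in wild type. Shares of 1 cell sum to a whole, which by itself pulls such values below 0, and the cells of a library share its depth.

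The median PP cell held 43.2% and 38.7% Ppy in knockout and 45.1% and 45.1% in wild type, a gene its own rule used. Pyy, which no class rule used, took 11.2% and 10.7% of UMIs in the median knockout and 15.3% and 14.4% in the median wild type PP cell. In alpha cells its median was 3.14% and 2.04% in knockout and 1.68% and 1.76% in wild type. After composition scaling Pyy was 1.19 log2 units higher in delta than in alpha cells and -1.22 against PP cells. Ghrl, the ghrelin gene of epsilon cells, was found in 0% and 2.16% of knockout and 0.649% and 1.67% of wild type delta cells, beside 2.37% and 2.94% of knockout and 0% and 0.568% of wild type endothelial cells.

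**Figure D2:**
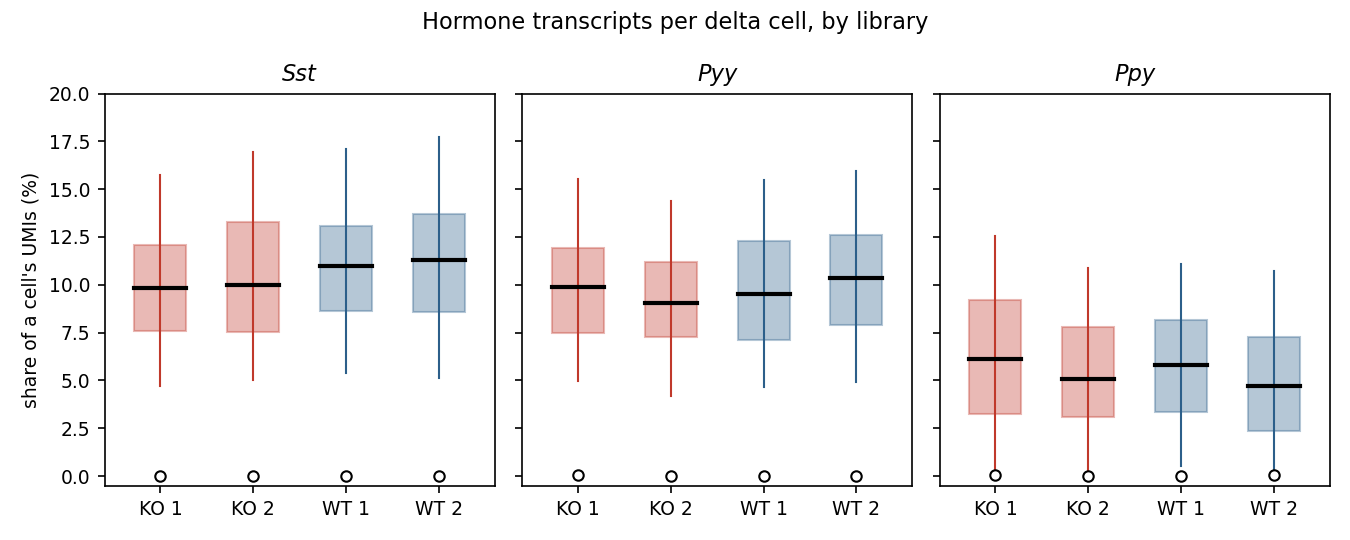
Share of a delta cell's UMIs (%) from Sst, Pyy and Ppy in each library. Boxes span the quartiles with the median as a bar, whiskers reach the 5th and 95th percentiles, and open circles give the endothelial median of the same library, near 0 in every panel. Ppy whiskers reach below 1% while those of Sst and Pyy stay above 4%.

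Between genotypes, the co-expression of Pyy and Ppy differed little. The share of delta cells with at least 1% Pyy averaged 99.2% ± 0.689 in knockout and 99.8% ± 0.0216 in wild type (SD, n = 2 each; exact permutation p = 0.333, the smallest possible), a difference of -0.61 percentage points. The share with at least 1% Ppy averaged 90.1% ± 0.689 in knockout and 89.2% ± 4.50 in wild type, a difference of 0.86 points (exact permutation p = 1). For transcript levels, the UMIs of a library's delta cells were summed (5492646 and 4455582 in knockout, 5615868 and 7216158 in wild type) and compared by the quasi-likelihood test of edgeR, with p-values adjusted (Benjamini-Hochberg) over 11718 genes. Of these, 781 (6.66%) passed an adjusted p of 0.05, 288 higher (2.46%) and 493 lower (4.21%) in knockout, and 2881 had an unadjusted p under 0.05. Changes are log2 of knockout over wild type after TMM scaling, which sets the typical gene near 0. Scaling by total UMIs alone put the median gene at 0.16 and turned the split to 982 higher and 145 lower. The count was 215 without wild type library 2, 305 without wild type library 1 and 459 without knockout library 2. In the alternatives run, each called gene that was tested kept its sign relative to the median gene, apart from 1 of 750 when cells with 3% Ppy or more were left out.

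Sel1l itself, the targeted gene, was similar in delta cells of both genotypes. It stood at 40.8 and 36.8 CPM in knockout and 35.1 and 30.1 CPM in wild type delta cells, a log2 change of 0.12 ± 0.125 (SE; edgeR adjusted p = 0.600). In beta cells, where Cre is active, Sel1l was at 43.0 and 43.6 CPM in knockout and 34.1 and 32.5 CPM in wild type, which after scaling is a log2 change of -0.49. The labels do not name the deleted exons, and 3′ counts outside them do not check the deletion. Derl3, an ER membrane protein of ERAD, was at 0.910 and 0.449 CPM in knockout and 1.42 and 0.554 CPM in wild type delta cells, too low to be tested. In beta cells it was at 41.5 and 46.8 CPM in knockout and 0.721 and 0.603 CPM in wild type.

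Most delta identity genes did not pass the test. Hhex was at 285 and 247 CPM in knockout and 266 and 278 CPM in wild type (log2 change -0.18 ± 0.0894, adjusted p = 0.241), and the groups overlapped. Ly6h changed by -0.13 (adjusted p = 0.473) and Ghsr by 0.25 (adjusted p = 0.403) in edgeR, short of the threshold. Arg1 changed by 0.26 with an edgeR adjusted p of 0.0717, and its knockout libraries, at 622 and 610 CPM, both lay above wild type at 486 and 447 CPM. Of 14 delta markers tested, 2 fell, 1 rose and 11 did not pass, with a median of -0.10 beside 0.01 over all genes. Of all genes tested, 4.21% fell and 2.46% rose. Knockout and wild type libraries did not overlap in CPM for 9 of the 14 (7 higher, 2 lower in knockout), while over all genes tested 43.7% lay wholly higher and 13.9% wholly lower in knockout.

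The 2 that fell were Rbp4 and Dlk1. Rbp4 was at 6870 and 6758 CPM in knockout and 9968 and 8955 CPM in wild type, without overlap (-0.62 ± 0.0732, edgeR adjusted p = 0.00249). Endothelial cells held at most 22.9 CPM of Rbp4. Dlk1, an imprinted gene for a Notch-related surface protein, was at 19.5 and 13.9 CPM in knockout and 74.6 and 42.3 CPM in wild type (-1.92 ± 0.255, edgeR adjusted p = 0.00475). Frzb, a secreted WNT antagonist, was 0.35 higher (edgeR adjusted p = 0.0415) and lost its call when any 1 library was left out, with adjusted p between 0.101 and 0.158.

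Among peptide hormone genes not used by the rule, 4 of 8 tested fell, beside 4.21% of all genes. Iapp was at 34383 and 33015 CPM in knockout and 45187 and 46451 CPM in wild type (-0.59 ± 0.0612, edgeR adjusted p = 0.000952), all 4 far above the 382 to 2764 CPM of endothelial cells. The others were Gast, Pdyn and Vgf, which encode gastrin, prodynorphin and a granule peptide precursor, at log2 changes of -2.05, -1.53 and -1.06. These 3 were low genes, at most 19.2 CPM in any delta library, and each lost its call without wild type library 1 (adjusted p 0.0512 to 0.0951). Ppy changed by -0.01 (edgeR adjusted p = 0.947), with 66380 and 54388 CPM in knockout and 59261 and 50869 CPM in wild type. Pyy in delta cells, at 99070 and 93700 CPM in knockout and 98526 and 105605 CPM in wild type, changed by -0.23 with an edgeR adjusted p of 0.0514. Its adjusted p lay between 2.37e-06 and 0.407 over the alternatives, on both sides of the threshold.

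Of 30 genes of the secretory granule tested, 6 fell and 1 rose, with a median of -0.10. Over all genes tested 4.21% fell and 2.46% rose. Resp18, a granule protein, was at 3231 and 3630 CPM in knockout and 4216 and 4601 CPM in wild type (-0.51, edgeR adjusted p = 0.0079). Chgb, chromogranin B, was at 3331 and 3098 CPM in knockout and 4034 and 3696 CPM in wild type (-0.41, edgeR adjusted p = 0.0161). Scg3, a secretogranin, changed by -0.40 and lost its call without knockout library 2 (adjusted p = 0.0630) or wild type library 1 (adjusted p = 0.0512).

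Free insulin transcript moved with genotype. Insulin made up 0.189% and 0.172% of UMIs in the median knockout and 0.608% and 0.660% in the median wild type delta cell, and 0.209% and 0.175% in knockout and 0.724% and 0.862% in wild type endothelial cells. Delta cells were thus below the endothelial level of their own library. The 18 beta markers, Ins1, Ins2 and Iapp among them, summed to 36868 and 35391 CPM in knockout and 52651 and 54052 CPM in wild type delta cells, and 3 of 12 tested fell: Iapp, G6pc2 and Ppp1r1a. Their part in the fall of Iapp was not tested.

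Endoplasmic reticulum chaperone genes were lower in knockout delta cells. Of 33 genes of ER folding, translocation and the unfolded protein response tested, 16 fell, beside 4.21% of all genes. The other 17 did not pass edgeR's threshold, and the median of the 33 was -0.43. DESeq2 also put 16 below wild type, and at an unadjusted p under 0.05 edgeR had 19 lower and 1 higher. Hspa5, the chaperone BiP, was at 589 and 612 CPM in knockout and 710 and 771 CPM in wild type (-0.45 ± 0.0764, edgeR adjusted p = 0.0121). Sdf2l1, a partner of BiP, was at 72.3 and 81.9 CPM in knockout and 107 and 130 CPM in wild type (-0.78 ± 0.110, adjusted p = 0.00594). Both knockout libraries lay below both wild type libraries for each.

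The same held for other steps of the folding line. Hsp90b1, the ER form of HSP90, was at 729 and 768 CPM in knockout and 981 and 989 CPM in wild type (-0.54, edgeR adjusted p = 0.00475). Pdia6, a disulfide isomerase, was at 275 and 272 CPM in knockout and 358 and 411 CPM in wild type (-0.64, edgeR adjusted p = 0.00484). Manf, a secreted ER stress factor, was at 412 and 449 CPM in knockout and 546 and 580 CPM in wild type (-0.54, edgeR adjusted p = 0.00601). Pdia3 and Pdia4, further disulfide isomerases, fell by 0.52 and 0.56 on the log2 scale, and Ssr2 and Sec61b, parts of the translocation channel, by 0.62 and 0.50. Without wild type library 2, 11 of the 16 calls were left and Creld2 and Dnajb11 were among those lost, while all 16 kept their sign without any library.

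The ERAD genes themselves were split in direction. Of 25 tested 4 fell, beside 4.21% of all genes, and 21 did not pass, with a median of 0.04. DESeq2 also put 4 below wild type, and at an unadjusted p under 0.05 edgeR had 8 lower and 2 higher. Of the 25, 15 had a log2 change above 0 and 10 below. Edem2, a mannosidase-like factor that hands glycoproteins to ERAD, was at 53.9 and 52.3 CPM in knockout and 70.7 and 79.1 CPM in wild type (-0.64, edgeR adjusted p = 0.0079). Selenos, a selenoprotein of the retrotranslocation complex, was at 230 and 225 CPM in knockout and 279 and 284 CPM in wild type (-0.45, edgeR adjusted p = 0.0120). Os9, a lectin, and Herpud1, a HRD1 partner, fell by 0.45 and 0.31. Os9 lost its call without wild type library 1 (adjusted p = 0.0650) or 2 (adjusted p = 0.0752), and Herpud1 without any 1 library (adjusted p 0.0629 to 0.131).

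In beta cells, which carry the deletion, genes of both lists were mostly higher. Over all 15137 genes tested there, 2975 (19.7%) rose and 3029 (20%) fell. Of 33 ER chaperone genes 24 rose and 2 fell in knockout beta cells with a median of 0.54, and of 26 ERAD genes 20 rose and 1 fell. The difference between the knockout effects in delta and beta cells was tested within libraries, and 2505 of 14803 genes (16.9%) passed, 1207 above and 1298 below. Of the 33 ER chaperone genes 28 were below, 2 were above, and the median difference was -0.89, beside 0.03 over all genes. Of 26 ERAD genes 11 were below and 1 was above. Without composition scaling the median difference of all genes was -0.68. Insulin took 41.0% and 44.8% of UMIs in the median knockout and 68.1% and 68.7% in the median wild type beta cell. Its part in that shift was not tested. Between delta and alpha cells 9 of 12758 genes (0.0705%) differed by edgeR, and 849 had an unadjusted p under 0.05. The count was 164 with the replicate block and 3 without wild type library 1, 17 without wild type library 2, 19 without knockout library 1 and 24 without knockout library 2. Of the lists, the integrated stress response had 1 gene below and the ER chaperone and ERAD lists had none, which does not show that delta and alpha cells responded alike.

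**Figure D3:**
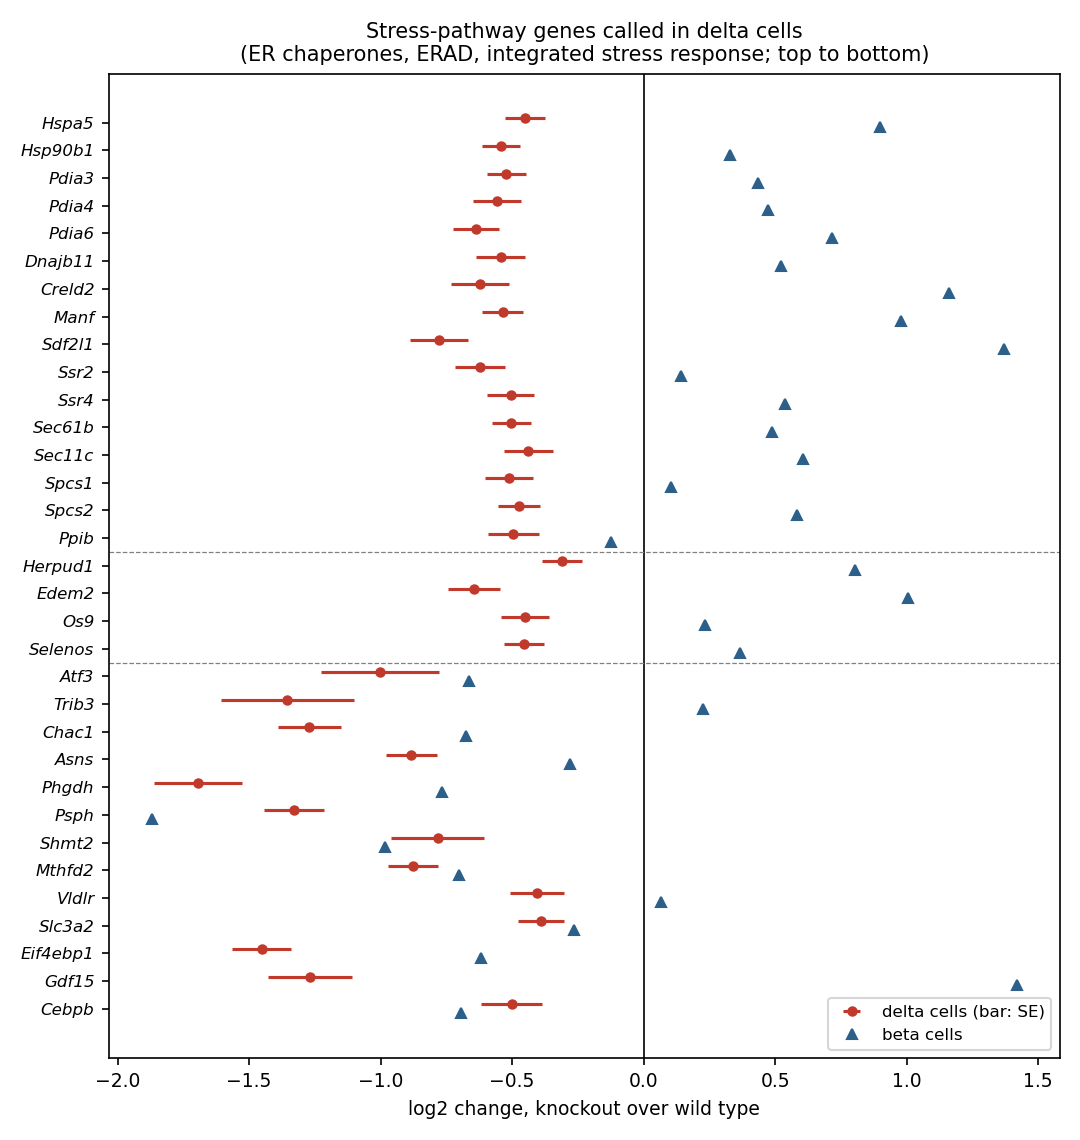
Log2 change of knockout over wild type for ER chaperone, ERAD and integrated stress response genes called in delta cells: delta cells as circles with SE, beta cells as triangles. Only genes called in delta cells are drawn, and every such call in these lists was a fall, so every delta value lies below 0. Most of the drawn ER chaperone and ERAD genes lie above 0 in beta cells. Over all tested members, 7 of 33 ER chaperone, 15 of 25 ERAD and 2 of 25 integrated stress response genes lay above 0 in delta cells.

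The integrated stress response, the program of the transcription factor ATF4 that supplies amino acids and curbs translation, was lower as well. Of 25 genes tested 13 fell, beside 4.21% of all genes, and 12 did not pass, with a median of -0.41. Eif4ebp1, a brake on translation initiation, was at 33.1 and 29.9 CPM in knockout and 72.8 and 83.1 CPM in wild type (-1.45 ± 0.113, edgeR adjusted p = 0.000126). Psph, the last enzyme of serine synthesis, was at 22.0 and 23.3 CPM in knockout and 49.7 and 53.1 CPM in wild type (-1.33 ± 0.115, edgeR adjusted p = 0.000261). Asns, asparagine synthetase, was at 72.1 and 81.0 CPM in knockout and 119 and 135 CPM in wild type (-0.88 ± 0.0984, edgeR adjusted p = 0.00162).

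Serine and folate enzymes and secreted products of this program followed. Phgdh, the first enzyme of serine synthesis, was at 14.7 and 12.6 CPM in knockout and 34.5 and 45.5 CPM in wild type (-1.70, edgeR adjusted p = 0.000804). Mthfd2, of mitochondrial folate metabolism, was at 64.8 and 69.6 CPM in knockout and 105 and 117 CPM in wild type (-0.88, edgeR adjusted p = 0.00132). Chac1, which degrades glutathione, was at 21.5 and 21.8 CPM in knockout and 44.5 and 49.6 CPM in wild type (-1.27, edgeR adjusted p = 0.000598). Gdf15, a secreted stress cytokine, was at 21.5 and 14.8 CPM in knockout and 41.3 and 38.9 CPM in wild type (-1.27, edgeR adjusted p = 0.00364). Atf3, at 72.6 and 149 CPM in knockout and 180 and 215 CPM in wild type, fell (edgeR adjusted p = 0.0290) and lost its call without wild type library 2 (adjusted p = 0.115).

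Of the 13, DESeq2 gave an adjusted p for 7 and called 5 of them. Leaving out wild type library 2 kept 7 of the 13 calls, and all 13 kept their sign without each library. In alpha cells Eif4ebp1 changed by -1.45, Psph by -1.15 and Asns by -0.96, each called there. In beta cells 10 of 28 genes of this list rose and 13 fell, beside 19.7% and 20% of all genes there, and the delta effect was below the beta effect for 14 and above it for 2. Gdf15 was 1.42 higher in knockout beta cells, a difference between delta and beta effects of -2.70 (edgeR adjusted p = 8.76e-08).

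Of 15 target genes of TGF-beta and bone morphogenetic protein (BMP) signalling tested, 3 fell and 1 rose, with a median of 0.17. Over all genes tested 4.21% fell and 2.46% rose. The 3 that fell encode ID proteins, which block basic helix-loop-helix factors. Id3 was at 83.2 and 64.0 CPM in knockout and 206 and 180 CPM in wild type (-1.53 ± 0.123, edgeR adjusted p = 0.000154). Id1 was at 34.96 and 34.3 CPM in knockout and 94.0 and 65.7 CPM in wild type (-1.34 ± 0.158, edgeR adjusted p = 0.00249). Id2 fell by 0.41 and Klf10, a target of TGF-beta, rose by 0.91, and both lost their call without wild type library 1. The other 11 did not pass. Id3 is strongly expressed in endothelial cells, at 2280 and 2176 CPM in knockout and 3020 and 2990 CPM in wild type. Its call stayed after removal of delta cells with other cells' markers, a step that leaves free RNA in place. The part of free RNA in the change of Id3 was not tested.

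Cells of other types were rare among the delta cells. At least 10 UMIs of macrophage, endothelial or stromal markers were found in 6 and 1 knockout and 5 and 8 wild type delta cells. Those over the limit for macrophage markers, 3 and 1 in knockout and 3 and 6 in wild type, held 15.5% and 80.9% of the macrophage-marker UMIs of knockout and 62.0% and 69.1% of those of wild type delta cells. The 10 macrophage markers summed to 109 and 420 CPM in knockout and 240 and 292 CPM in wild type, the 10 endothelial markers to 77.6 and 26.0 CPM against 21.2 and 52.9 CPM, and the 10 stromal markers to 56.1 and 5.84 CPM against 11.8 and 10.4 CPM. Cldn5, Pdgfra and Lum had no UMI. With these cells removed, a step chosen after seeing the data, 938 genes passed, of which 764 were among the 781. No macrophage, endothelial, stromal or Schwann cell marker passed edgeR's or DESeq2's threshold, while 1 macrophage, 1 stromal and 1 Schwann cell gene had an unadjusted p under 0.05. Of 10 alpha cell markers 2 fell, Ttr by 0.80 and Gc, the vitamin D binding protein gene, by 0.62. Of 7 ductal markers Epcam fell by 0.59, Krt18 fell by 0.45 and Sox9 rose by 0.70. Over all genes tested 4.21% fell and 2.46% rose. The call of Ttr was lost without wild type library 2 (adjusted p = 0.0565), that of Krt18 without knockout library 2 (0.0567) or wild type library 2 (0.0555), and that of Sox9 without knockout library 2 (0.0579) or wild type library 1 (0.0782).

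Genes that rose most were mixed in kind. Bhlhe40, a transcriptional repressor of the circadian clock, was at 53.3 and 54.5 CPM in knockout and 15.5 and 21.2 CPM in wild type (1.39 ± 0.142, edgeR adjusted p = 0.000952). Hmgcs1, an early enzyme of cholesterol synthesis, was at 86.5 and 123 CPM in knockout and 35.4 and 53.8 CPM in wild type (1.06 ± 0.184, edgeR adjusted p = 0.0123). Socs3, a brake on cytokine signalling, was at 68.5 and 67.6 CPM in knockout and 22.4 and 40.3 CPM in wild type (0.94, edgeR adjusted p = 0.0215). Rgs4, which shortens G protein signals, rose by 1.11, Rnaset2b by 1.21 and Itga6, an integrin subunit, by 0.77. Rnaset2b has a near-identical copy, Rnaset2a, so its counts are uncertain, and Itga6 lost its call without wild type library 1. In CPM, before composition scaling, all these genes were also higher in both knockout libraries of alpha, beta and PP cells. Bhlhe40, for example, was at 10.3 and 12.9 CPM in knockout and 3.15 and 3.04 CPM in wild type alpha cells. Socs3 was lower in knockout endothelial cells. The direction of these rises was thus not particular to delta cells.

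The largest rises included transcripts that are also signs of RNA state. Gm42418, an annotation that overlaps ribosomal RNA, was at 3672 and 3895 CPM in knockout and 949 and 925 CPM in wild type delta cells (1.87 ± 0.0727, edgeR adjusted p = 2.66e-07). AY036118, of the same kind, rose by 1.43, and the nuclear RNA Neat1 by 1.10, with 232 and 301 CPM in knockout and 97.4 and 125 CPM in wild type. Lars2, mitochondrial leucyl-tRNA synthetase, was at 192 and 205 CPM in knockout and 50.9 and 53.2 CPM in wild type (1.78 ± 0.0887, edgeR adjusted p = 2.07e-06). Lars2 and Gm42418 also rose in alpha, beta, endothelial and macrophage cells, Lars2 by 1.19, 0.88, 1.30 and 1.39 in that order and Gm42418 by 0.97 in beta, 0.87 in endothelial and 1.72 in macrophage cells. Neat1 was higher in CPM, before composition scaling, in both knockout libraries of the same 4 classes. In endothelial cells it was at 293 and 283 CPM in knockout and 78.3 and 76.3 CPM in wild type. The mitochondrial share of UMIs, given above, was higher in knockout delta cells too, and its part was not tested.

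Other gene groups moved little or depended on the scaling. For comparison, 4.21% of all genes tested fell and 2.46% rose. Of 43 oxidative phosphorylation genes 19 fell with a median of -0.29, led by Uqcrb (-0.47) and Ndufa4 (-0.45), but 2 of the 19 were called when sums were scaled by total UMIs alone, and 4 without wild type library 2. Of 63 cytosolic ribosomal protein genes 8 fell and 3 rose, against 1 lower and 10 higher by total UMIs alone. Among them Rpl29, at 285 and 132 CPM in knockout and 481 and 521 CPM in wild type (-1.40), shares reads with pseudogene copies and is uncertain. Of 19 excitability genes the potassium channels Kcnk3 and Kcnk16 rose by 0.66 and 0.46, and both lost the call without any of 3 libraries (knockout 2, wild type 1 and wild type 2). Of 15 receptor genes of delta cells none passed edgeR or DESeq2, with 1 at an unadjusted p under 0.05 and a median of 0.22. Of 20 islet transcription factors Glis3 rose by 0.66, a call lost without wild type library 1 or 2, and 19 did not pass. Of 27 immediate early genes Egr4 and Atf3 fell and Zfp36 rose, the last with its call lost without wild type library 1. Of 22 antigen presentation and interferon genes Ifi27 fell (edgeR adjusted p = 0.0490), a call lost without knockout library 2, wild type library 1 or wild type library 2.

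**Figure D4:**
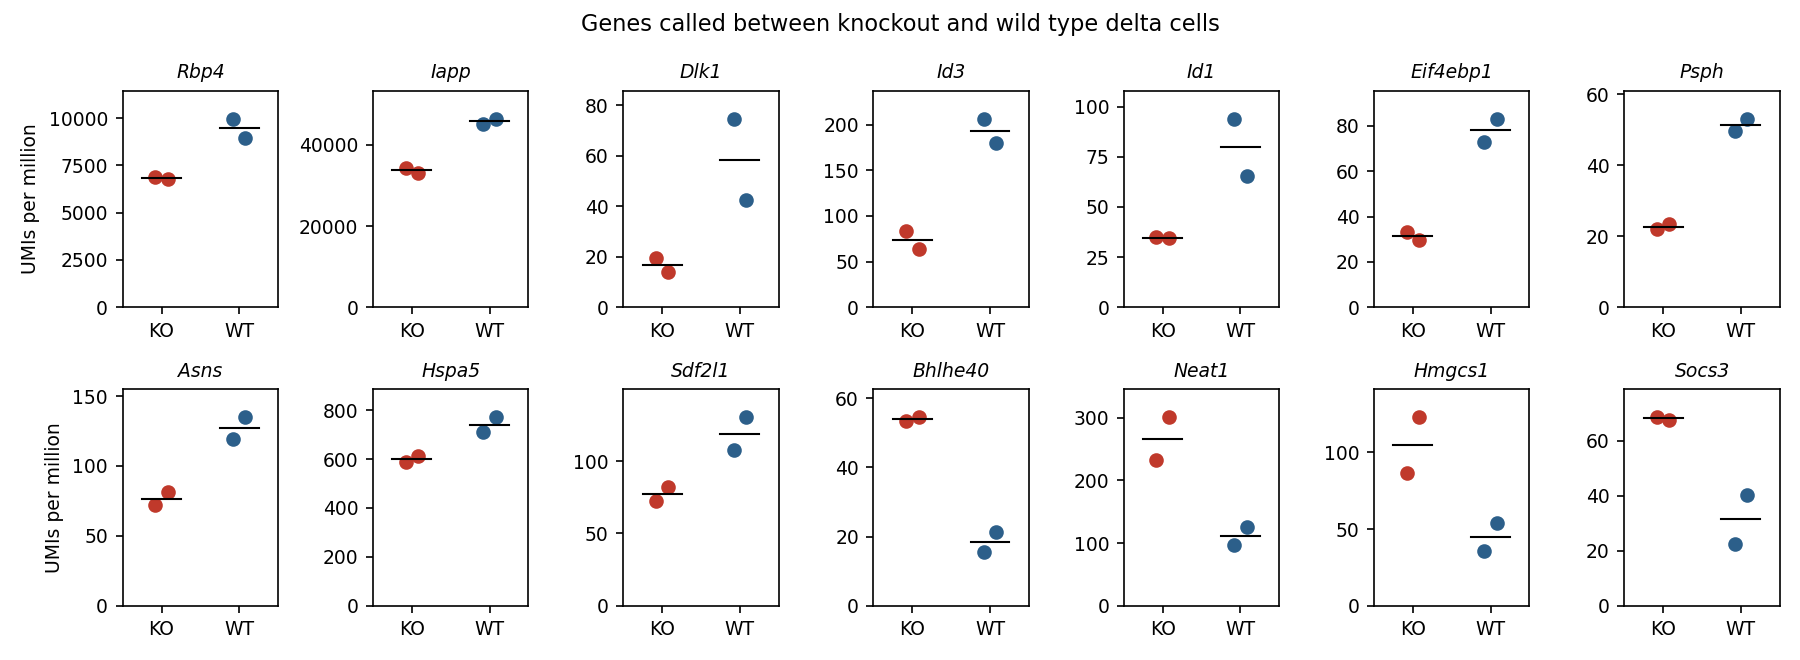
CPM in delta cells for 14 called genes, knockout (KO) left of wild type (WT), 1 point per library with the mean as a bar. Some of these genes were chosen for groups that do not overlap, among them Id3 at 83.2 and 64.0 CPM in knockout and 206 and 180 CPM in wild type.

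**Figure D5:**
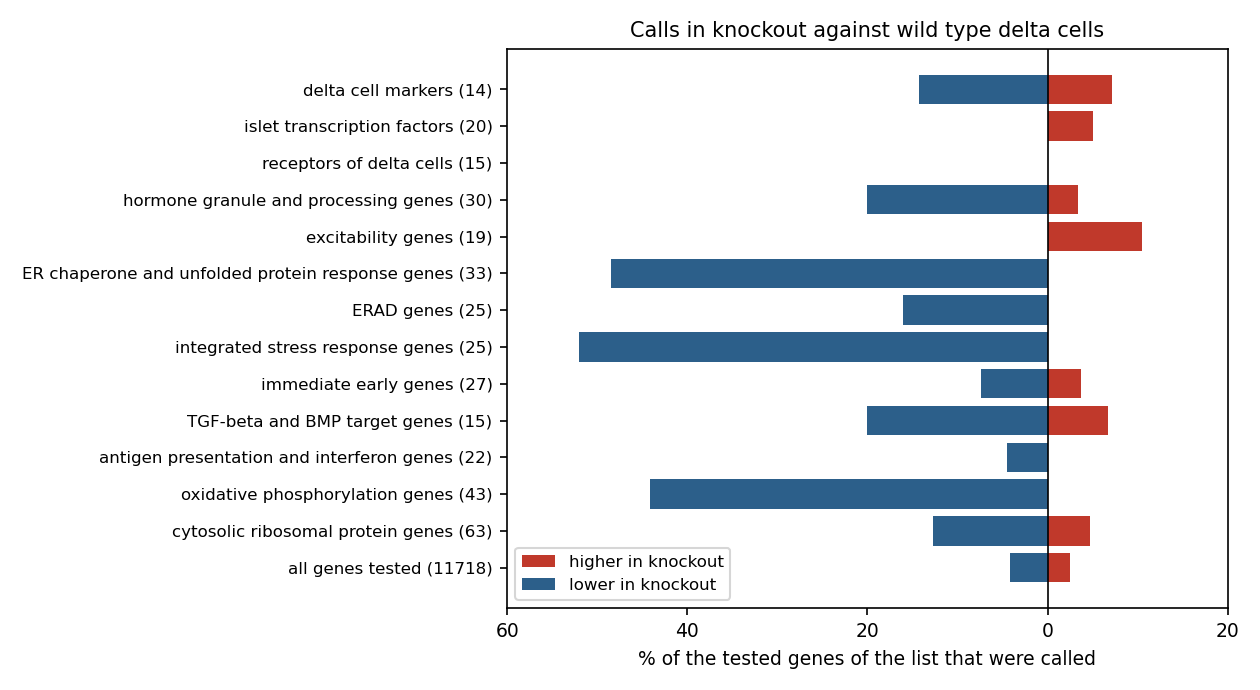
Percent of the tested genes of each list that were called higher (right) or lower (left) in knockout delta cells, with the number tested in brackets. The ER chaperone, integrated stress response and oxidative phosphorylation lists reach far to the left, beside all genes tested, of which 2.46% were higher and 4.21% lower.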

How the data were processed

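The deposited files hold whole-number UMI counts of 19074 genes in the cells of 4 libraries, made by the authors with Cell Ranger 3.0.0 and Seurat 2.3.4 on mm10, per the submitters' processing notes. Their cell filters are not given in the sources used here. Delta, alpha, beta, PP, endothelial and macrophage cells were chosen by hormone shares or markers. The members and gene lists were chosen with earlier results of these data known. Counts were summed per class and library and tested with edgeR 4.0.16 (R 4.3.3): quasi-likelihood fit, TMM scaling, genes kept by filterByExpr, calls at an adjusted p (Benjamini-Hochberg) below 0.05. Differences between classes were interaction terms, with libraries blocked. Sst, Ins1, Ins2 and Gcg were kept out of calls.

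Named genes were a panel (Sst, Hhex, Rbp4, Ly6h, Arg1, Ghsr, Pyy, Ppy, Iapp, Sel1l, Hspa5, Derl3), the 10 widest called changes up and down (50 CPM or more) with no overlap between genotypes, up to 3 members per list, and the 5 smallest p each way per class difference. Further list members were named after their values were seen. Alternatives were RLE scaling, library size, scaling by cell number, DESeq2 1.42.0, limma-voom (limma 3.58.1), other filters and cell cuts, thinning to 5000 UMIs, omission of single libraries, and a block for replicate number. The code was checked on simulated counts, in which all genes had the same preset spread between libraries. There the knockout test in delta cells recovered 4% of genes changed by 0.5 log2 units and 63% of those changed by 1. The preset spread was not fitted to these libraries, so the rates in the real data may differ. Genes that did not pass are not shown to be unchanged. Scrublet ran in scanpy 1.11.5, doublets were kept in the main analysis, and the deposited counts were never normalized before summing. Coordinates are from GENCODE vM21 (GRCm38), by symbol for 18796 genes. Intervals and shares of cells cover counting error only. A few genes are not reported here.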

Additional observations from a re-analysis of the deposited data

Results flagged for a closer look

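The knockout effect differed between delta and beta cells for 10 named genes, tested as the difference of the 2 log2 changes in edgeR (delta minus beta). It lay above for Ppp1r1a (2.43, adjusted p = 6.72e-09), a phosphatase inhibitor at 45.5 and 60.1 CPM in knockout and 70.3 and 67.8 CPM in wild type delta cells, and at 46.4 and 46.4 CPM in knockout and 206 and 199 CPM in wild type beta cells. It lay above also for Gng12 (1.43), Igf1r (1.37), Pbxip1 (1.32) and Fam46a (0.97). Pbxip1 rose in delta cells, at 164 and 173 CPM in knockout and 111 and 108 CPM in wild type, and the other 3 did not pass there. In beta cells all 4 fell after composition scaling, while Pbxip1 was at 19.2 and 21.4 CPM in knockout and 20.9 and 19.6 CPM in wild type beta cells. It lay below for Sdf2l1 (-2.16), Hspa5 (-1.37), Manf (-1.53) and Pdia6 (-1.37), which fell in delta cells and rose in beta cells. Neurog3 (-3.70) was at 65.9 and 68.0 CPM in knockout and 69.1 and 58.5 CPM in wild type delta cells, against 6.53 and 5.60 CPM in knockout and 0.302 and 0.244 CPM in wild type beta cells.

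Against alpha cells the difference (delta minus alpha) was past the threshold for AY036118 (1.12), Gm42418 (0.88), Lars2 (0.61) and Pde10a (0.60) above, and Fkbp11 (-0.86) below. Fkbp11, an ER prolyl isomerase, was at 49.2 and 48.7 CPM in knockout and 74.8 and 77.0 CPM in wild type delta cells, and at 21.0 and 19.2 CPM in knockout and 14.9 and 17.8 CPM in wild type alpha cells. Pde10a, a phosphodiesterase, was at 568 and 860 CPM in knockout and 480 and 873 CPM in wild type delta cells, so that its replicates differed more than its genotypes.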

How the results depend on the processing

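Of the 781 genes called between genotypes in delta cells, the count was 8939 (8907 higher, 32 lower) with sums scaled by cell number, 391 (68 higher, 323 lower) with DESeq2, 1635 without a filter, 374 with cells thinned, 55 without cells of 3% Ppy or more, 666 with the replicate block, and 215 to 629 with 1 library left out. Fewer cells or UMIs entered the thinned and Ppy fits by construction, and otherwise the cause was not tested. Of the 374 calls with cells thinned, 316 were among the 781, in the same direction. That fit kept 13 of the 16 ER chaperone calls and 9 of the 13 integrated stress response calls. The 2505 differences from beta cells became 8424 by library size and 1498 to 2250 with 1 library left out. The 9 differences from alpha cells became 15 without doublets, 15 under 2% insulin, 164 with the replicate block and 3 to 24 with 1 library left out. For delta cells against alpha, beta and PP cells, 1614 genes became 5948 by library size and 1219 to 1445 with 1 library left out. The share with at least 1% Pyy, -0.61 points, was 0.11 points at a 0.1% threshold. With 1 library left out the difference in delta share ran from -1.39 to 0.82 points, in Ppy from -2.33 to 4.04 and in Pyy from -1.10 to -0.12. No named gene reversed relative to the median gene. Across genes, the deviations of same-numbered libraries from their genotype means had a correlation of -0.00739 in delta cells. Pairing of single genes by replicate number was not tested. The 2 libraries per genotype and the depth gap limit precision.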

Other observations

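Within each library, delta cells were ranked in 3 equal groups by their share of Pyy, Ppy or Sst, with cells carrying macrophage, endothelial or stromal UMIs left out after seeing that they led the poorest groups. These are descriptions with no test, over genes at 50 CPM or more. More genes were lower than higher in the rich group in all 4 libraries (51 higher and 895 lower of 2550 for Pyy, 19 and 1044 of 2569 for Ppy, 60 and 1182 of 2565 for Sst). Shares sum to a whole, which by itself lowers other genes in the rich group, and its part was not tested.

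Pyy-rich delta cells had more Tcea3, a transcription elongation factor, with a mean log2 ratio of 0.64 to the Pyy-poor cells of the same libraries. They had less Dlk1 (mean log2 ratio -1.02), for example 12.1 CPM in knockout library 2 and 23.7 CPM in wild type library 2, against 24.5 and 64.2 CPM in their Pyy-poor cells. Ppy-rich cells had more Ptn, pleiotrophin (0.71), and Calb1, the calcium buffer calbindin (0.55), at 141 and 112 CPM in knockout and 120 and 107 CPM in wild type, against 75.5 and 85.7 CPM and 80.9 and 83.4 CPM in Ppy-poor cells. Hhex had a log2 ratio of -0.29 and was lower in Ppy-rich cells of all 4 libraries. Sst-rich cells had more Fkbp11 (0.66), the ER prolyl isomerase, and less Id3 (-0.96), at 37.0 and 36.9 CPM in knockout and 133 and 125 CPM in wild type, against 65.4 and 76.2 CPM and 288 and 227 CPM in Sst-poor cells. Id3 was thus below wild type in knockout cells of both the Sst-rich and the Sst-poor group.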
